A study of Mus musculus with 15 samples.

Results

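The genes of cholesterol and fatty acid synthesis that the sterol-sensing transcription factors SREBP1 and SREBP2 are known to regulate were followed through sorted cells of mouse skin tumours. The list holds 27 genes chosen by symbol: enzymes from acetyl-CoA to cholesterol, the core enzymes of fatty acid synthesis, and a group called regulators below. The regulators are the SREBP genes, the genes of proteins that control SREBP, and Stard4, a sterol carrier. Of the 27 genes, 26 had a row in the count files, among 37583 genes, and all 26 passed the filter on low counts. Hmgcs1, the enzyme that makes HMG-CoA for the mevalonate pathway, is not analysed here.

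Cholesterol is built from acetyl-CoA through mevalonate, isoprenoid units, squalene and a series of sterol intermediates. When membrane sterol is low, the escort protein SCAP carries SREBP from the endoplasmic reticulum to the Golgi, where it is cut and released to the nucleus to raise transcription of the enzymes. When sterol is plentiful, INSIG proteins hold SCAP back. In skin, sterols and fatty acids made by keratinocytes enter the lipid barrier of the outer layers, and sebaceous glands make lipid as their main product.

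The cells came from skin tumours of C57BL/6 mice. Every group, controls included, had received the carcinogen DMBA with the tumour promoter TPA over a period longer than 24 weeks. Cells were sorted on CD34, a marker of the hair follicle bulge, and on integrin alpha 6 (a6, encoded by Itga6), a laminin receptor of basal keratinocytes, into CD34+ a6-high, CD34- a6-high and CD34- a6-low cells. Animals were wild type (WT, with no allele given) or carried SIRT6 flox/flox with K14-cre (KO), a Cre driven by a keratin promoter of basal keratinocytes, so cells outside that lineage keep the gene. Each population had 2 KO and 3 WT libraries, 15 in all. No label names the animal behind a library, so the spread that p-values rest on may be technical in part.

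Depth was 10.08 to 28.62 M counts in genes per library (M stands for 1000000), 19.78 to 28.62 M in KO and 10.08 to 21.56 M in WT libraries. Sirt6 did not check the genotype labels: it stood at 5.07 to 8.53 CPM (counts per 1000000 gene counts) in KO and 4.45 to 10.54 CPM in WT libraries, and the counts cover the whole gene, including parts that Cre does not remove. KO below means the libraries labelled KO. Cd34 stood at 162.6 CPM or more in CD34+ and at 20.94 CPM or less in CD34- a6-high libraries. Itga6 was between 263.4 and 575.6 CPM in a6-high libraries, but 2 a6-low libraries lay in that range, WT replicate 1 at 470.8 CPM and KO replicate 2 at 445.5 CPM, against 67.86 to 174.1 CPM in the other 3. Cd34 was also higher in these 2, at 40.26 and 27.74 CPM, than in the other 3 a6-low libraries, at 4.51, 10.32 and 15.51 CPM. Ddx3y, a Y-linked gene, stood at 51.85 CPM or more in the 3 KO replicate 2 libraries and did not exceed 0.222 CPM elsewhere. Several population results are also given without these libraries, but the genotype and interaction results are not. In each population, KO against WT sets 1 library with high Ddx3y and 1 with low Ddx3y against WT libraries with low Ddx3y. Leaving out KO replicate 2 would leave 1 KO library per population. In the a6-low cells, KO and WT each include 1 of the libraries with high Itga6.

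Start-site sequences are shown for 5 of the genes whose differences between populations had the smallest unadjusted p, because these promoters are known to carry elements through which SREBP and its partner factors act. They are the 250 bases before the start site, from RefSeq on GRCm38.p6, 5′ to 3′ on the gene's strand. Positions are chr9:42264301-42264550 (minus strand) for Sc5d, chr8:64733579-64733828 (minus) for Msmo1, chr11:120824548-120824797 (minus) for Fasn, chr7:143829964-143830213 (plus) for Dhcr7 and chr5:4104698-4104947 (minus) for Cyp51. Capitals mark matches on either strand to the E-box CACGTG, the NF-Y box CCAAT and the SP1 box GGGCGG.
Sc5d: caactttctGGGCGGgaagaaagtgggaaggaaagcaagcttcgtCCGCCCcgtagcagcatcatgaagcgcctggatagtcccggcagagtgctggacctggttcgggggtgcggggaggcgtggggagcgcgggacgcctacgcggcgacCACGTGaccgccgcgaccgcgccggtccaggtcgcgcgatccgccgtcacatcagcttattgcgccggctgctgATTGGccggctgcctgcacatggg
Msmo1: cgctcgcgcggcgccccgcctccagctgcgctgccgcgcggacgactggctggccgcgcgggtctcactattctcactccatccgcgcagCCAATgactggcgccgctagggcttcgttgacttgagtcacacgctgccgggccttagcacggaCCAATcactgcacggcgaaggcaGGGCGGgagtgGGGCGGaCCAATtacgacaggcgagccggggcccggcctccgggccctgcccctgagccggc
Fasn: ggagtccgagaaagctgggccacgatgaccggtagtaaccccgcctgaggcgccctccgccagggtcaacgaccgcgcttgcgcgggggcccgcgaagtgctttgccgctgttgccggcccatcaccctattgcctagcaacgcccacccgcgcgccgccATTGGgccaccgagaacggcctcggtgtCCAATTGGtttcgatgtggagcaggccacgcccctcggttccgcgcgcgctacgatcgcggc
Dhcr7: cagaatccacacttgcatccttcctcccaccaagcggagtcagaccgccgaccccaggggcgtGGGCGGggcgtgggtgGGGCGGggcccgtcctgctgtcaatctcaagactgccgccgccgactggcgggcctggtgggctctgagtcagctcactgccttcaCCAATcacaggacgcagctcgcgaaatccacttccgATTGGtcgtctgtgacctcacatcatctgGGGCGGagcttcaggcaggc
Cyp51: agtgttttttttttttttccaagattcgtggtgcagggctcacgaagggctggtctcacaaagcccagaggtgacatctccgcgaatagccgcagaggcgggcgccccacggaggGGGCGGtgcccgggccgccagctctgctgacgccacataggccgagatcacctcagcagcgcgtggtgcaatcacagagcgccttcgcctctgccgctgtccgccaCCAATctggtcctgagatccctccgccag

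In the 250 bases shown, Msmo1 held 3 NF-Y and 2 SP1 boxes, Dhcr7 held 2 NF-Y and 3 SP1 boxes, and Fasn held 3 NF-Y boxes, of which 2 overlap on opposite strands. Sc5d held 1 E-box, 1 NF-Y box and 2 SP1 boxes, and Cyp51 held 1 NF-Y box and 1 SP1 box. For Dhcr7, which has 3 listed start sites, the window with the most matches is the one shown. NF-Y and SP1 are known to work with SREBP at such promoters. Over 31 windows of 23 members, 64.5% held an NF-Y box and 74.2% an SP1 box, against 33.8% and 32.7% of all 32851 windows of that length. The E-box was in 16.1% of the member windows and 6.02% of all. The core of the sterol regulatory element, TCACNCCAC, was in 1 member window, that of Hmgcs1, and in 1.05% of all windows, and the 5 windows shown have no match to it. These are letter matches and were not tested as binding sites.

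Per length of exon, the most abundant members were Ebp, a sterol isomerase, at a median of 71.1 CPM per kilobase over the 15 libraries (lowest 43.16, highest 97.06), Fdps, which makes farnesyl diphosphate, at 57.03 (39.69 to 92.54), and Msmo1, the sterol C4-methyl oxidase, at 50.11 (31.59 to 70.41). The ranges of these neighbours overlap. At the low end stood Acaca, the enzyme that makes malonyl-CoA, at 0.306 (0.252 to 0.475), and Tm7sf2, a sterol reductase, at 0.427 (0.174 to 0.82), and neither range reached that of the next member, Lss, at 3.14 (2 to 5.78). Lss closes squalene into the first sterol. Among the regulators Srebf2 was highest, at 27.69 (10.52 to 34.19) against 8.92 (4.12 to 12.86) for Srebf1, so their ranges overlapped. Lengths are unions of all annotated exons, so long rare transcripts lower these levels.

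**Figure D1:**
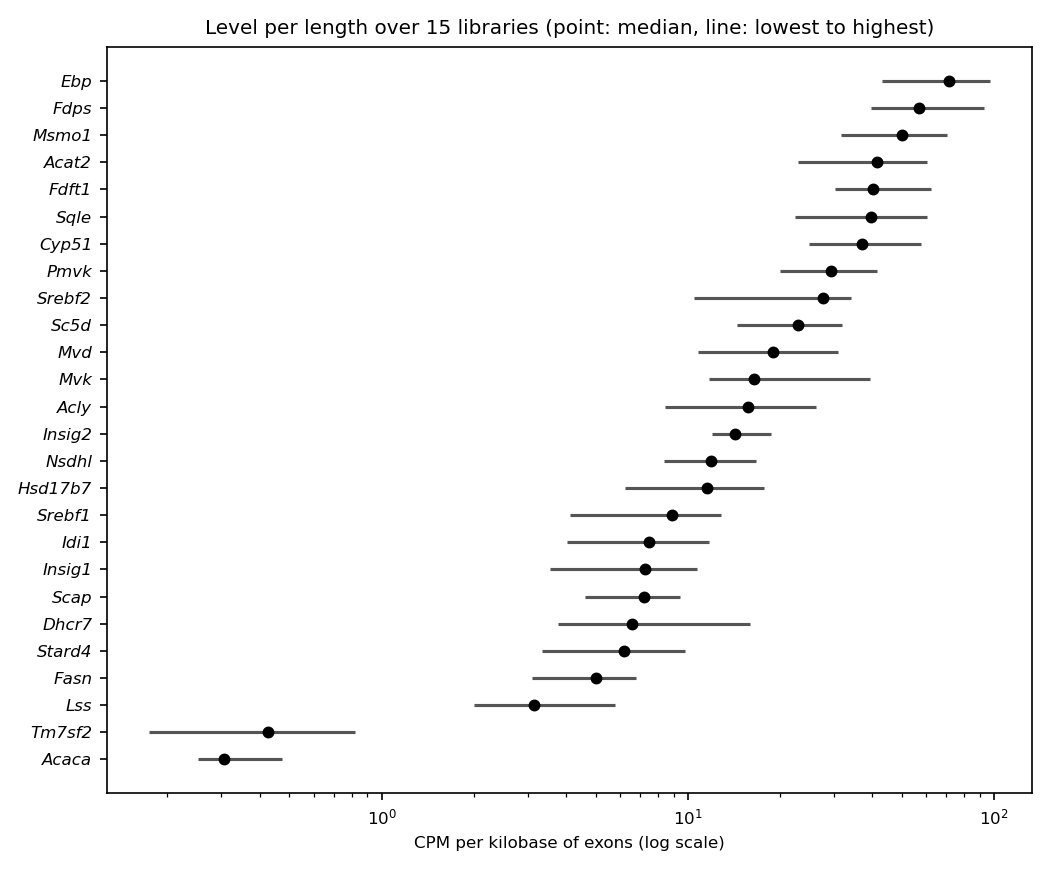
Level per length of the 26 genes, in CPM per kilobase of exons on a log axis, with the median over 15 libraries as a point and the lowest and highest library as the ends of a line. Ebp, Fdps and Msmo1 stand at the top, and Tm7sf2 and Acaca lie apart from the rest at the bottom.

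Between CD34- a6-high and CD34- a6-low cells, 25 of the 26 genes were fitted lower in a6-high cells, and none passed the test. The median log2 difference was -0.35 over the members and -0.02 over all genes, of which 52.4% were fitted lower. The edgeR quasi-likelihood test with Benjamini-Hochberg adjustment over 14652 genes called 0 members at 0.05, where 0.00683% of all genes were called. Unadjusted p was under 0.05 for 4 members, Msmo1, Sqle, Sc5d and Cyp51, and for 11.1% of all genes. All 4 are sterol-pathway enzymes. DESeq2 called 0 members and 1.69% of all genes. In the only member fitted the other way, Nsdhl, a sterol C4-decarboxylase, the log2 difference was 0.02 ± 0.18 (SE).

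The 6 measured mevalonate and isoprenoid genes were all fitted lower, and their median log2 difference was -0.36. The lowest of them was Mvk, the mevalonate kinase, with a log2 difference of -0.58 ± 0.34 (SE) and adjusted p = 0.58 by edgeR. Of the 11 squalene and sterol genes 10 were fitted lower, with a median of -0.43. All 6 regulators, Stard4 included, were fitted lower with a median of -0.23, and all 3 fatty acid genes with a median of -0.34. The intervals allow for real differences: 21 of 26 confidence intervals of 95% lay within a 2-fold change in either direction, and the lowest bound was -1.33.

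Msmo1 is the enzyme with the smallest p in this comparison. In a6-high cells it stood at 284.1, 253.8 and 330.8 CPM in WT and 254.7 and 194.1 CPM in KO libraries, and in a6-low cells at 307.9, 339.5 and 322.3 CPM in WT and 432.6 and 337.3 CPM in KO libraries. Only WT replicate 3 of the a6-high cells reached into the a6-low range. CD34+ libraries overlapped both, at 302.4, 256.8 and 330.4 CPM in WT and 279.3 and 350.4 CPM in KO. The log2 difference was -0.47 ± 0.14 (SE), lower in 4 of 5 pairs of same-numbered libraries, with an unadjusted p of 0.00589 and adjusted p = 0.274 by edgeR.

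Sqle, which oxidises squalene ahead of ring closure, gave 186.4, 164.1 and 245.8 CPM in WT and 205.2 and 124.7 CPM in KO a6-high libraries, and 233.7, 220.4 and 226.2 CPM in WT and 335 and 251.3 CPM in KO a6-low libraries. The groups overlap through WT replicate 3. CD34+ libraries stood at 215.4, 191.6 and 221.3 CPM in WT and 193.4 and 231 CPM in KO, within the range of the a6-high CD34- libraries. Its log2 difference was -0.51 ± 0.17 (SE), with adjusted p = 0.302 by edgeR. Cyp51, the lanosterol demethylase, was at 156.6, 137.7 and 189 CPM in WT and 151.1 and 109.7 CPM in KO a6-high libraries, against 187.7, 166.6 and 197.4 CPM in WT and 254.7 and 161.3 CPM in KO a6-low libraries. It was lower in a6-high cells in 5 of 5 pairs although the groups overlap, and CD34+ libraries stood at 169.6, 118 and 164.1 CPM in WT and 155.6 and 173.4 CPM in KO. Its log2 difference was -0.43 ± 0.17 (SE), with adjusted p = 0.38 by edgeR. Being lower in 5 of 5 pairs was found for Cyp51 and Acly, 2 of 26 members, and for 6.85% of all genes.

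The shift was uneven across libraries. Relative to each gene's mean over the 15 libraries on the log2(CPM + 1) scale, the median member stood at 0.55 in KO replicate 1 of the a6-low cells, which was the highest of the 15 libraries for 15 of 26 members. The other a6-low libraries stood at 0.01, 0.13 and 0.20 in WT and at -0.29 in KO replicate 2. Among a6-high CD34- libraries the lowest was KO replicate 2, at -0.46, which was the lowest of all for 9 members. The median over all genes stayed within 0.05 of 0 in each library. Without KO replicate 1 of the a6-low cells, 19 of 26 members remained below 0 and the median became -0.11.

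**Figure D2:**
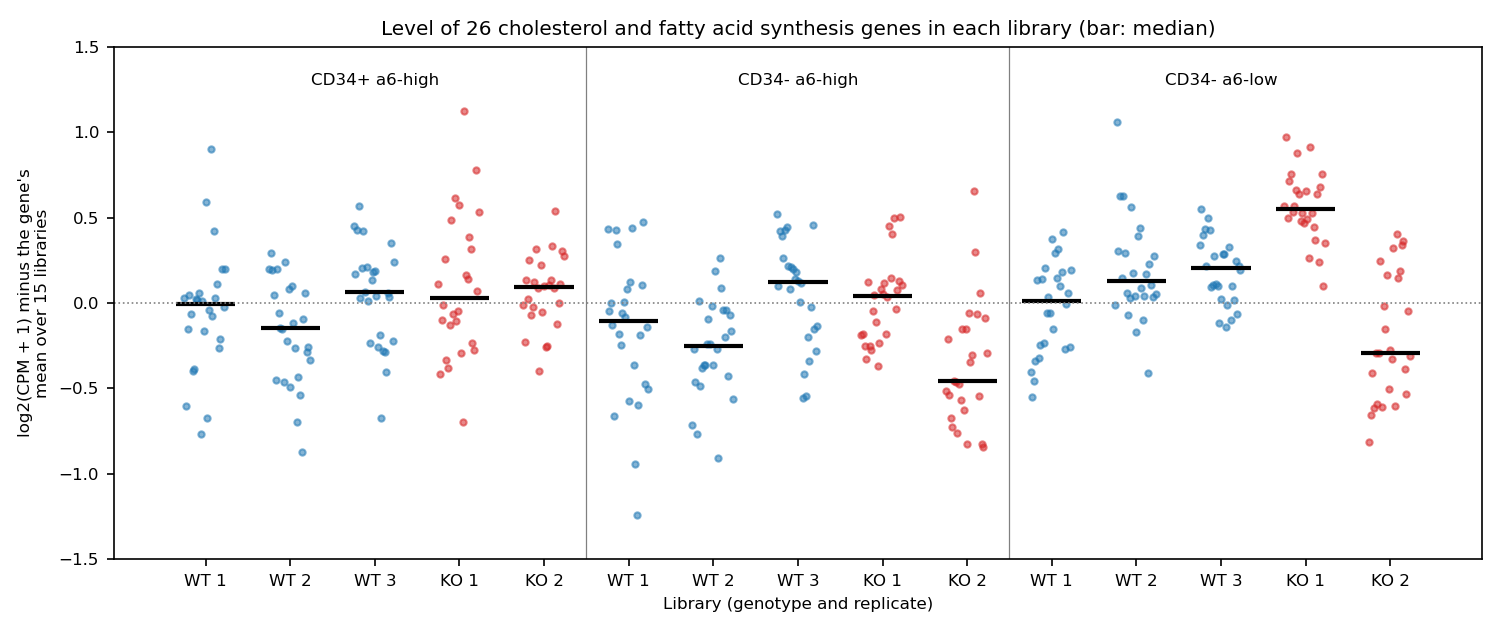
Each point is 1 of 26 genes, as log2(CPM + 1) minus that gene's mean over 15 libraries, by library (genotype and replicate, in 3 populations, WT in blue and KO in red), and the bar is the median. The bar is highest, at 0.55, in KO replicate 1 of the a6-low cells and lowest, at -0.46, in KO replicate 2 of the CD34- a6-high cells.

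Within pairs of same-numbered libraries, 24 of 26 members were lower in a6-high cells in KO replicate 1 and 23 in WT replicate 2, with median log2 differences of -0.63 and -0.42. In WT replicate 3 it was 16, in KO replicate 2 it was 15 and in WT replicate 1 it was 13, with medians of -0.05, -0.09 and 0.03. KO replicate 2 and WT replicate 1 are the pairs whose a6-low library had Itga6 in the a6-high range. Without those 2 a6-low libraries all 26 members were fitted lower, with a median of -0.57 against 0.04 for all genes. That fit keeps KO replicate 1, with the median member at 0.55, as the only KO a6-low library. The fitted difference is the mean of the KO and the WT difference, so it leans on that library. Leaving out those libraries was chosen after the data were seen.

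Other marker sums moved with these libraries. The 9 measured markers of differentiated keratinocytes summed to 30310, 40430 and 20900 CPM in the a6-low libraries KO replicate 1, WT replicate 2 and WT replicate 3, and to 11070 and 7118 CPM in WT replicate 1 and KO replicate 2, against 8219 to 14340 CPM in CD34- a6-high libraries. All 9 were fitted lower in a6-high cells, and all 10 basal keratinocyte markers and 15 of 15 cell cycle genes higher, with 0 of each list passing. Sebocyte markers summed to 348.7 to 1240 CPM in a6-low and 287.4 to 425.8 CPM in CD34- a6-high libraries, mostly through Mgst1, an enzyme found in many cell types. Krt79, a keratin of the sebaceous duct on that list, separated the groups, at 36.83 to 407.3 CPM in a6-low and 2.15 to 9.08 CPM in CD34- a6-high libraries (log2 difference -4.32 ± 0.97 (SE), adjusted p = 0.189 by edgeR), while Mc5r, a receptor of sebocytes, had no count in any library. Of the 8 tested sebocyte markers 6 were fitted lower and 2 higher in a6-high cells. Krt79 was the only 1 of them lower without overlap, as were 0.901% of all genes. Melanocyte markers summed to 140.7 CPM in KO replicate 1 of the a6-low cells, with Dct at 52.78 and Tyrp1 at 63.14 CPM, and to between 1.01 and 6.6 CPM in the other 14 libraries. Macrophage and dendritic markers summed to 32.43 to 179.8 CPM in a6-low and 10.05 to 126.1 CPM in CD34- a6-high libraries. Most of the highest sum in each was Cd74, at 155.6 CPM in a6-low and 114.6 CPM in CD34- a6-high cells. On the same list Csf1r, Adgre1, Itgam and Mrc1 did not exceed 1.745 CPM in any library, while Lyz2 reached 8.106 CPM in a6-low KO replicate 1. All 7 tested markers of this list were fitted lower in CD34- a6-high than in a6-low cells (median -2.05 on the log2 scale). The edgeR test called 0 of them, and 1 with same-numbered libraries as pairs, where 0.41% of all genes were called. The part of these cells in the members' shift was not tested, and in sorted bulk RNA fewer cells of a type and less RNA per cell cannot be told apart.

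Between CD34+ and CD34- cells of the a6-high sort, 18 members were fitted higher and 8 lower in CD34+ cells, and none passed the test. The median log2 difference was 0.15, against -0.02 for all genes, of which 52.8% were fitted lower. The edgeR test called 0 members, where 1.17% of all genes were called, and 2 had an unadjusted p under 0.05 (15.1% of all genes). DESeq2 called 0 members, and 5.41% of all genes. With same-numbered libraries taken as pairs the edgeR test also called 0 members, and 5.41% of all genes. The genes with the clearest separation were Fasn and Dhcr7, and 4 members, Mvd, Lss, Dhcr7 and Fasn, were higher in 5 of 5 pairs, against 10.1% of all genes.

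Fasn is the fatty acid synthase, which builds palmitate. CD34+ libraries stood at 58.48, 40.22 and 60.26 CPM in WT and 74.19 and 61.66 CPM in KO, and CD34- a6-high libraries at 35.61, 34.06 and 46.17 CPM in WT and 54.79 and 41.34 CPM in KO. CD34+ WT replicate 2 lay within the CD34- range, and the other 4 CD34+ libraries were above it. The a6-low libraries, at 58.41, 52.7 and 58.26 CPM in WT and 65.1 and 40.77 CPM in KO, overlapped both. The log2 difference was 0.48 ± 0.18 (SE), with an unadjusted p of 0.0205 and adjusted p = 0.222 by edgeR.

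Dhcr7, the reductase of the last step to cholesterol, gave 79.63, 34.98 and 36.89 CPM in WT and 93.13 and 45.34 CPM in KO CD34+ libraries, against 32.51, 21.98 and 28.3 CPM in WT and 43.24 and 33.98 CPM in KO CD34- a6-high libraries. The replicate 1 libraries of both genotypes carried the largest CD34+ values. In a6-low cells it was at 46.7, 44.82 and 38.2 CPM in WT and 80.26 and 27.41 CPM in KO libraries. Its log2 difference was 0.86 ± 0.33 (SE), the largest of the 26, with adjusted p = 0.226 by edgeR, and it passed with no filter on low counts, with adjusted p = 0.0147. The share of all genes called without the filter is not given here. Acly, which makes cytosolic acetyl-CoA from citrate, stood at 92.84, 65.9 and 103 CPM in WT and 139 and 87.39 CPM in KO CD34+ libraries, and at 57.82, 76.77 and 72.62 CPM in WT and 88.26 and 44.58 CPM in KO CD34- a6-high libraries. Its log2 difference of 0.55 ± 0.26 (SE) had adjusted p = 0.353 by edgeR, and the groups overlapped. Its a6-low libraries were at 84.18, 82.76 and 77.16 CPM in WT and 136.7 and 55.36 CPM in KO.

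Hsd17b7, a sterol ketoreductase, gave 86.24, 40.22 and 65.02 CPM in WT and 85.4 and 61.02 CPM in KO CD34+ libraries, and 37.92, 44.05 and 62.5 CPM in WT and 59.15 and 31.75 CPM in KO CD34- a6-high libraries. It was higher in CD34+ cells in 4 of 5 pairs, with a log2 difference of 0.55 ± 0.27 (SE) and adjusted p = 0.385 by edgeR. In a6-low cells it was at 74.07, 50.59 and 57.94 CPM in WT and 90.47 and 46.86 CPM in KO libraries. By role, 5 of 6 mevalonate genes, 8 of 11 squalene and sterol genes, 3 of 6 regulators and 2 of 3 fatty acid genes were fitted higher in CD34+ cells. The lowest log2 difference was -0.29 ± 0.22 (SE), in Srebf1.

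The size of the CD34 median depended most on KO replicate 2 of the CD34- a6-high cells, though leaving out no single library reversed its sign. Within pairs, the median member was 0.47 higher on the log2 scale in CD34+ cells in KO replicate 2, 0.12 higher in both WT replicate 1 and WT replicate 2, and at -0.01 and 0.00 in KO replicate 1 and WT replicate 3. Without KO replicate 2 of the CD34- a6-high cells, 12 of 26 members were fitted lower and the median was 0.02. Without KO replicate 1 of the CD34- a6-high cells the median was 0.24 with 5 members lower, and without WT replicate 1 of the CD34+ cells it was 0.10. Without the 3 libraries with Ddx3y, 14 were lower and the median was 0.00 (-0.003).

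**Figure D3:**
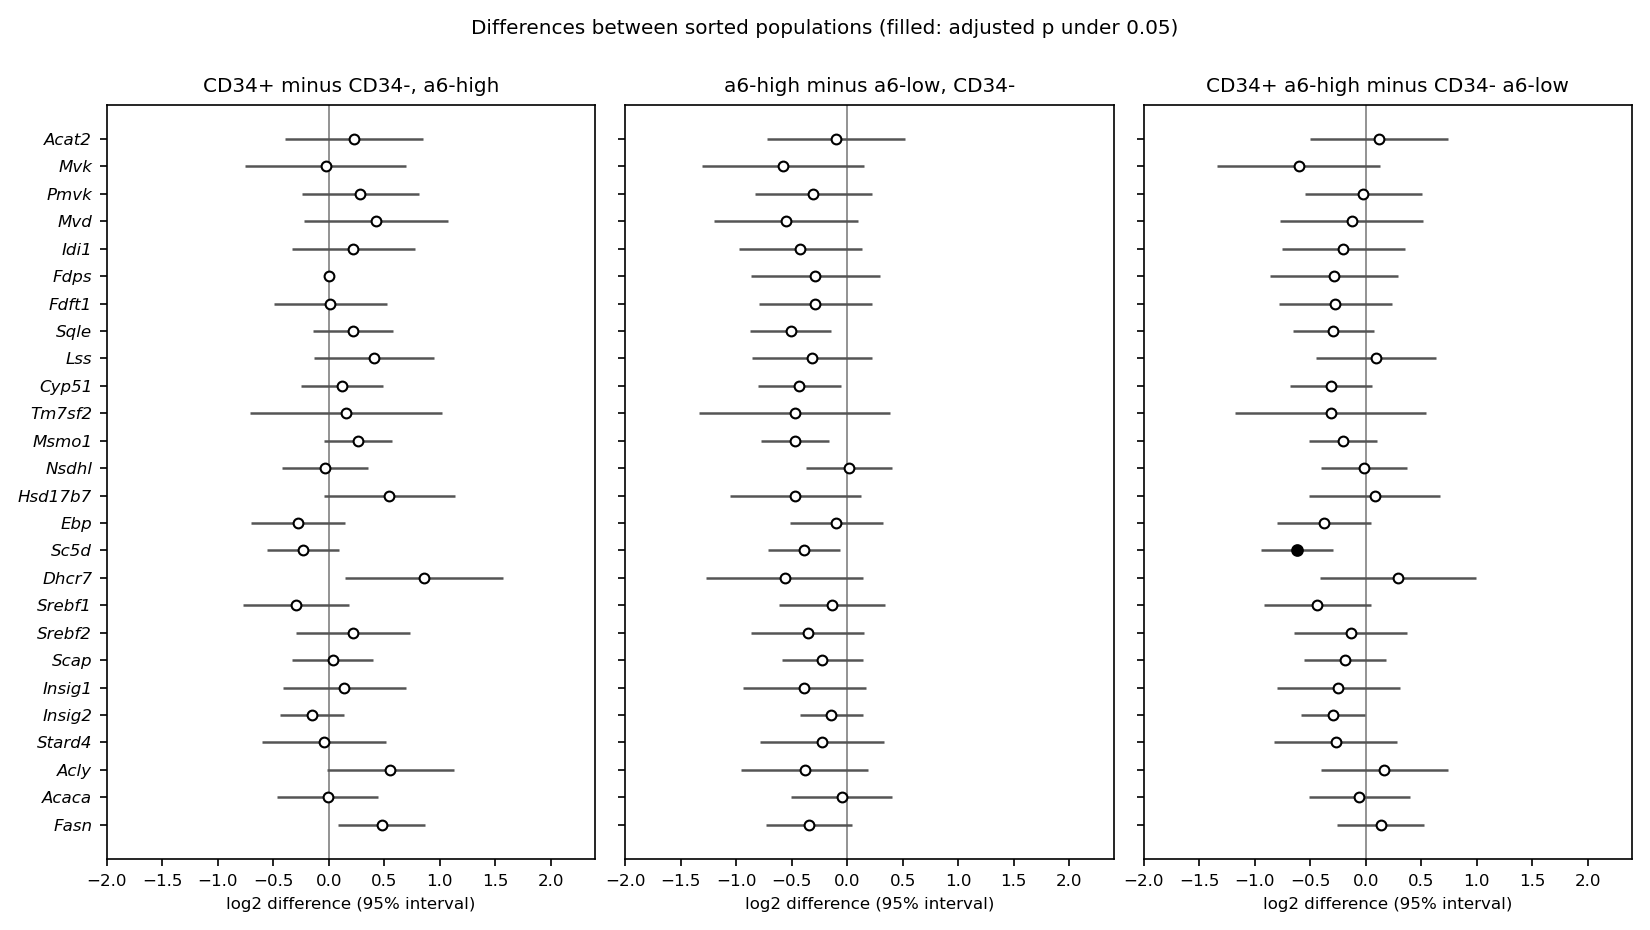
Log2 difference of the 26 genes between sorted populations, with 95% intervals (none is drawn for Fdps in the CD34 comparison, whose fitted difference is near 0). A filled point marks adjusted p under 0.05, which only Sc5d reached, in the comparison of CD34+ a6-high with CD34- a6-low cells, and 25 of 26 points lie below 0 in the middle panel.

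CD34+ a6-high cells differed from CD34- a6-low cells in 1 member: Sc5d, the sterol desaturase that acts before Dhcr7, fell. It stood at 111.4, 105.6 and 95.52 CPM in WT and 70.45 and 96.17 CPM in KO CD34+ libraries, and at 140.9, 155.5 and 140 CPM in WT and 137.6 and 143.7 CPM in KO a6-low libraries. The groups did not overlap, which also held for 3.67% of all genes in this direction. The log2 difference was -0.62 ± 0.15 (SE), a fold of 0.651, lower in 5 of 5 pairs, with adjusted p = 0.0369 by edgeR, 0.024 with same-numbered libraries as pairs and 0.00564 by DESeq2. In CD34- a6-high cells Sc5d lay between, at 155.6, 95.12 and 124.2 CPM in WT and 100.8 and 90.08 CPM in KO libraries, overlapping both.

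The edgeR test called 4.93% of all genes here and 2.68% as lower, so 1 call among 26 members is near the background. Unadjusted p was under 0.05 for 2 members and 21.6% of all genes. The pairing raised the calls to 11.8% of all genes and DESeq2 called 11.5%, each with Sc5d as the 1 called member. The call held without WT replicate 1 of the a6-low cells, with adjusted p = 0.0449. It did not pass when any other single library was left out: CD34+ KO replicates 1 and 2 and WT replicates 1, 2 and 3, and a6-low KO replicates 1 and 2 and WT replicates 2 and 3, with adjusted p from 0.0547 to 0.174 and log2 differences from -0.52 to -0.74. Without the 2 a6-low libraries with high Itga6, Sc5d kept a log2 difference of -0.61 but did not pass. That fit keeps KO replicate 1 as the only KO a6-low library. Without the 3 libraries with Ddx3y the adjusted p of Sc5d was 0.11.

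Over all members, 20 were fitted lower and 6 higher in CD34+ a6-high than in a6-low cells, with a median log2 difference of -0.20 against -0.02 for all genes, of which 52.1% were fitted lower. Leaving out KO replicate 1 of the a6-low cells brought this to 14 lower and a median of -0.03 (-0.025). Leaving out KO replicate 2 of the a6-low cells gave 25 lower and -0.31, leaving out WT replicate 2 of the CD34+ cells gave 20 lower and -0.14, and leaving out the 3 libraries with Ddx3y gave 23 lower and -0.34. All 6 regulators and 5 of 6 mevalonate genes were among the lower ones, while Fasn, Acly, Dhcr7, Lss, Hsd17b7 and Acat2 were fitted higher. Insig2, which retains SCAP in the endoplasmic reticulum, gave 41.78, 47.06 and 52.55 CPM in WT and 42.7 and 46.12 CPM in KO CD34+ libraries, against 41.67, 59.24 and 51.01 CPM in WT and 59.72 and 64.94 CPM in KO a6-low libraries. Its log2 difference was -0.30 ± 0.13 (SE), with adjusted p = 0.216 by edgeR. CD34- a6-high libraries lay among these, at 54.28, 49.02 and 49.62 CPM in WT and 49.07 and 52.6 CPM in KO.

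**Figure D4:**
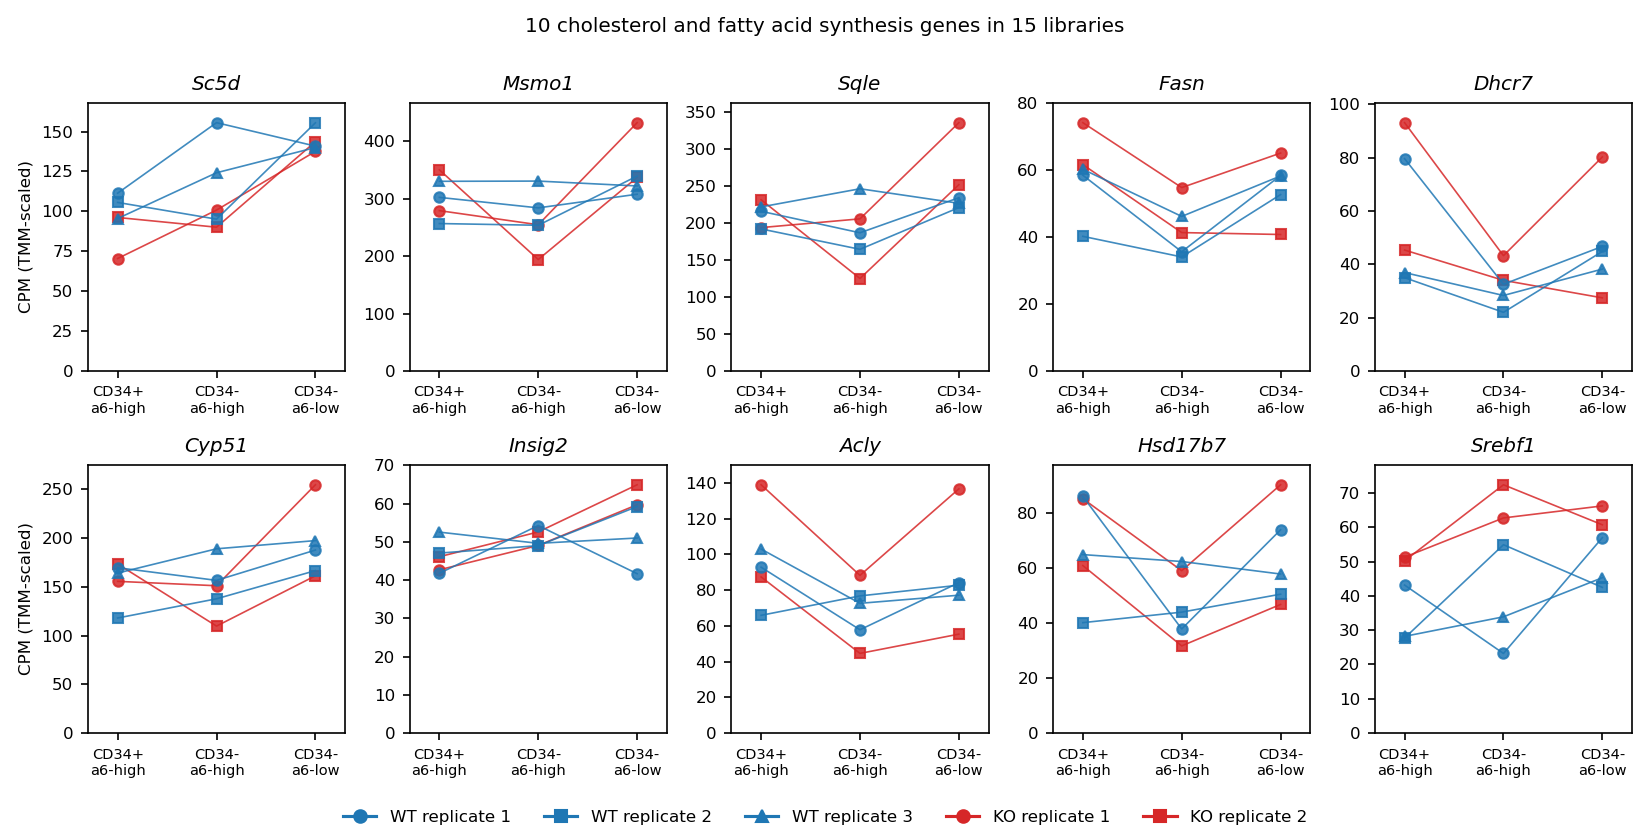
TMM-scaled CPM of the 10 genes with the smallest p between populations, in 15 libraries, with lines joining same-numbered libraries of a genotype (WT in blue, KO in red). Sc5d separates CD34+ a6-high from a6-low libraries without overlap, and in Sqle, Msmo1 and Cyp51 the highest library is KO replicate 1 of the a6-low cells.

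Between genotypes no member passed the test in any population. In CD34+ a6-high cells 15 members were fitted higher and 11 lower in KO (median 0.11, all genes 0.01), in CD34- a6-high cells 7 higher and 19 lower (median -0.13, all genes 0.05), and in a6-low cells 17 higher and 9 lower (median 0.14, all genes 0.04). Of all genes, 51%, 53.6% and 53.5% were fitted higher in KO in these populations. The edgeR test called 0 members in each, and 0.00683% of all genes in each. Unadjusted p was under 0.05 for 1, 1 and 0 members, against 7.59%, 9.59% and 4.69% of all genes. DESeq2 called 0 members, and 0.17%, 0.199% and 0.0239% of all genes. With counts summed over populations per genotype and replicate number, 0 members were called (0.00641% of all genes) and 1 had an unadjusted p under 0.05, as did 10.6% of all genes. DESeq2 called 0 members and 0.819% of all genes there, and 16 members were fitted higher, as were 52.8% of all genes.

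By role, the fitted genotype differences pointed in both directions. In the sums the median log2 difference was 0.32 for the 6 regulators, 0.19 for the 3 fatty acid genes, 0.03 for the 11 squalene and sterol genes and -0.17 for the 6 mevalonate genes, with 0.03 for all genes. In CD34- a6-high cells all 6 mevalonate genes and 10 of 11 squalene and sterol genes were fitted lower in KO, against 46.4% of all genes, and 4 of 6 regulators higher. These are counts over genes that were not called, and the groups of genes were not tested against each other. In CD34- a6-high cells the median member, relative to each gene's mean, stood at 0.04 and -0.46 in KO replicates 1 and 2. In WT replicates 1, 2 and 3 it stood at -0.10, -0.25 and 0.12. The 2 KO libraries thus differed, and KO replicate 2 is among the libraries with high Ddx3y.

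Srebf1, which encodes SREBP1, was the member with the smallest p. In CD34+ cells it was at 51.31 and 50.23 CPM in KO and 43.17, 27.71 and 28.2 CPM in WT libraries, and in CD34- a6-high cells at 62.75 and 72.43 CPM in KO and 23.21, 54.94 and 33.9 CPM in WT libraries. In a6-low cells it was at 66.26 and 60.75 CPM in KO and 57, 42.49 and 45.31 CPM in WT libraries. KO libraries lay above the WT libraries in each of the 3 populations, though not across populations. Such a separation held for 14.9%, 16.5% and 8.51% of all genes in the single populations. The share of all genes with it in all 3 was not counted. The log2 differences were 0.62 ± 0.31, 0.85 ± 0.31 and 0.40 ± 0.31 (SE), with adjusted p of 0.653, 0.498 and 0.865 by edgeR, and 0.55 ± 0.16 in the sums, with an unadjusted p of 0.0136 and adjusted p = 0.461. With replicate number as a block, the unadjusted p in the sums was 0.0796 by edgeR. Rai1 shares 109 exon bases with Srebf1 on the opposite strand, and the counts cannot tell strands apart.

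Srebf2, which encodes SREBP2, gave a log2 difference of 0.69 ± 0.33 (SE) in CD34- a6-high cells, with KO libraries at 199.9 and 221.7 CPM and WT libraries at 75.55, 191.5 and 123.4 CPM, and adjusted p = 0.523 by edgeR. Scap was at 69.19 and 55.9 CPM in KO and 53.74, 35.93 and 43.04 CPM in WT CD34+ libraries, a log2 difference of 0.50 ± 0.24 (SE) with adjusted p = 0.652 by edgeR. Insig1 was at 26.37 and 30.85 CPM in KO and 22.73, 10.98 and 15.58 CPM in WT CD34+ libraries, a log2 difference of 0.80 ± 0.36 (SE) with adjusted p = 0.652 by edgeR. In these 3 comparisons the KO libraries lay above all WT libraries of the population. Stard4, a sterol carrier, went the other way in CD34- a6-high cells, with a log2 difference of -0.54 ± 0.37 (SE) and adjusted p = 0.615 by edgeR.

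Without overlap, KO libraries lay above WT libraries for 7 members in CD34+ cells (14.9% of all genes), 4 in CD34- a6-high cells (16.5%) and 4 in a6-low cells (8.51%). In the opposite direction it was 1 (Mvd; 13.2%), 1 (Tm7sf2; 13.7%) and 0 (6.38%). The 7 in CD34+ cells were Idi1, Lss, Srebf1, Scap, Insig1, Acaca and Fasn. Over all 15 libraries no member separated the genotypes. The precision was low: with 2 against 3 libraries, 11, 13 and 16 of 26 intervals lay within a 2-fold change in the 3 populations, so a 2-fold difference lay inside the interval of many members. Tm7sf2 had the widest.

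**Figure D5:**
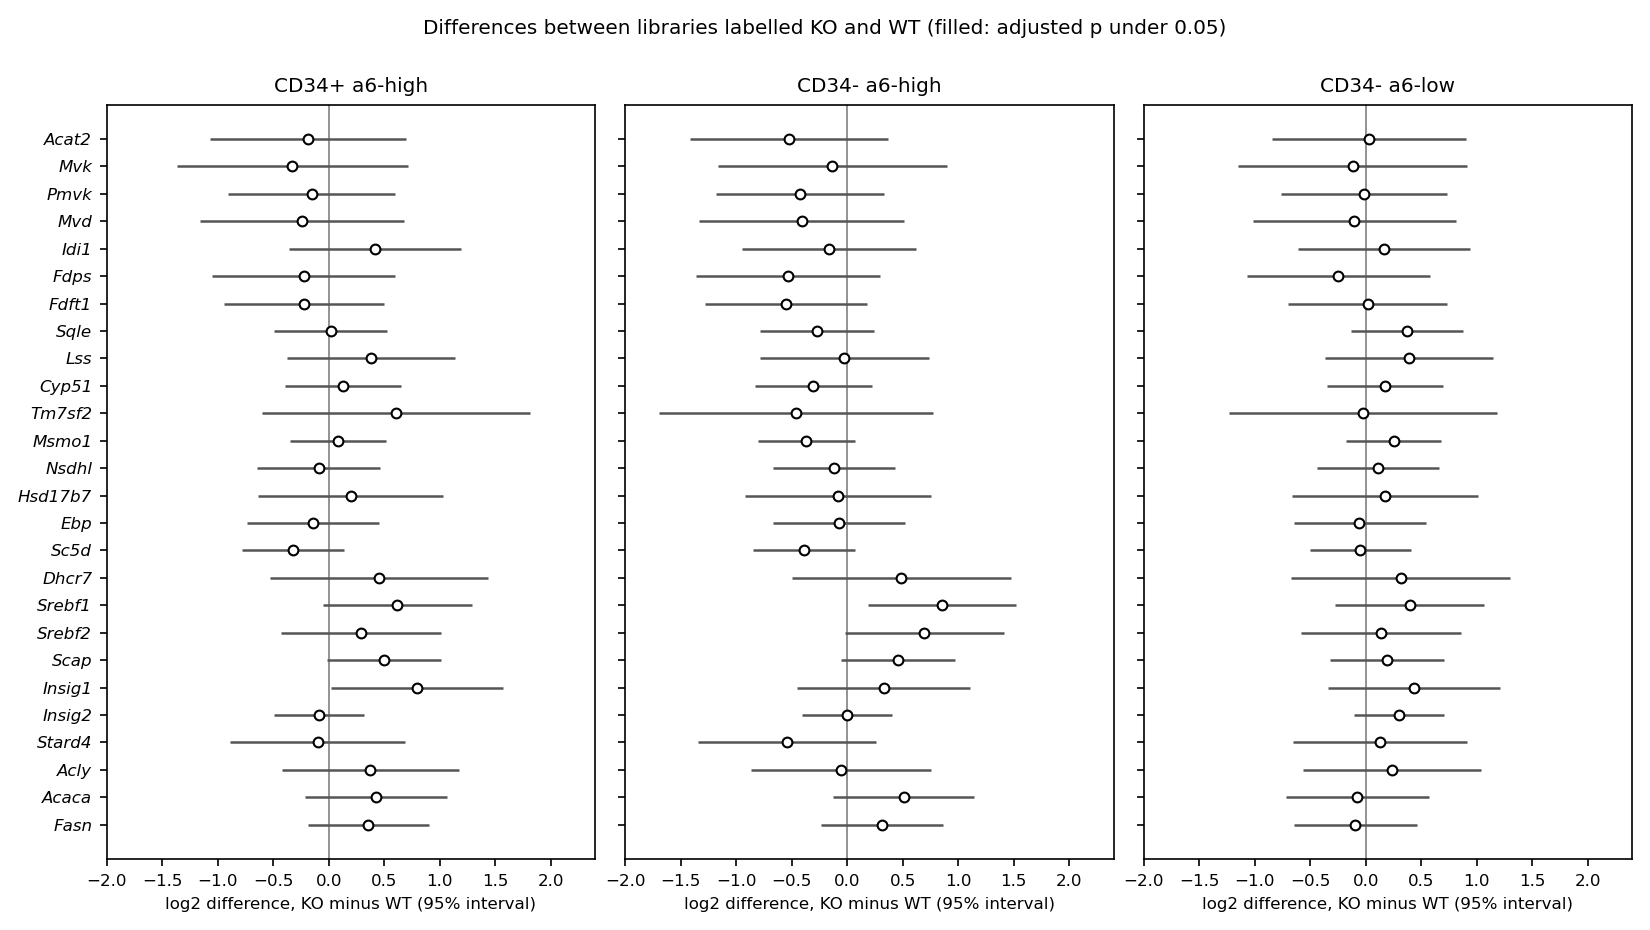
Log2 difference of KO minus WT libraries for the 26 genes in each population, with 95% intervals. No point is filled, since none had an adjusted p under 0.05. The interval of Srebf1 lies above 0 in CD34- a6-high cells and that of Insig1 in CD34+ cells.

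Whether the population differences depended on genotype was tested as an interaction. The edgeR test called 0 members for CD34 and 0 for a6, as it called 0% of all genes, and unadjusted p was under 0.05 for 0 and 1 members, against 1.09% and 1.15% of all genes. DESeq2 called 0 members in both, and 0.00398% and 0% of all genes. The 1 was Msmo1, whose a6 difference was 0.62 lower in KO than in WT on the log2 scale (-0.62, unadjusted p = 0.0482, adjusted p = 1 by edgeR). Intervals were wide, with 7 and 3 of 26 inside a 2-fold range.

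Genes that work beside the members behaved as follows in the 3 population comparisons. Of 8 desaturases and elongases, Fads2, which desaturates polyunsaturated fatty acids, rose in CD34+ against CD34- a6-high cells (log2 difference 3.33 ± 0.58 (SE), adjusted p = 0.0171 by edgeR) and against a6-low cells (2.98 ± 0.57, adjusted p = 0.0173). Its CD34+ libraries stood at 12.2, 3.56 and 12.63 CPM in WT and 20.24 and 25.92 CPM in KO, and no other library was above 4.52 CPM. Of 9 triglyceride and lipid droplet genes, Agpat2 (0.95 ± 0.14, adjusted p = 0.00925) and Plin2 (1.19 ± 0.28, adjusted p = 0.0309), a coat protein of lipid droplets, rose in CD34+ against a6-low cells, and of 10 fatty acid oxidation genes Etfdh fell (-0.71 ± 0.13, adjusted p = 0.0156), all by edgeR. With the pairing, Fads1 (adjusted p = 0.0255), Elovl1 (0.0454), Dgat2 (0.00537) and Plin2 (0.0375) were also called higher in CD34+ against CD34- a6-high cells. Against a6-low cells it added Fads1 as higher (0.0128) and Scd1 (0.0228) and Elovl7 (0.0105) as lower, all by edgeR. The 2 comparisons with CD34+ cells share those libraries. Against CD34- a6-high cells the edgeR test called 1.17% of all genes, and 5.41% with the pairing. Against a6-low cells it called 4.93%, and 11.8% with the pairing.

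No gene of the 12 other sterol and isoprenoid genes, the 7 measured genes of acetyl-CoA and NADPH supply or the 15 genes of sterol sensing, uptake, efflux and storage passed in these comparisons without the pairing. With same-numbered libraries as pairs, Scarb1, a lipoprotein receptor, rose (log2 difference 0.62, adjusted p = 0.0228) and Mylip, a ligase that marks lipoprotein receptors for breakdown, fell (a fold of 0.499, adjusted p = 0.0376) in CD34+ against CD34- a6-high cells, and Soat1, which esterifies cholesterol, rose against a6-low cells (log2 difference 1.55, adjusted p = 0.0224), all by edgeR. The lowest unpaired p in CD34+ against CD34- a6-high cells belonged to Aacs (0.40 ± 0.19, adjusted p = 0.339) and Pdss2 (0.41 ± 0.24, 0.479), to Me1 (0.86 ± 0.39, 0.313) and Acss2 (0.87 ± 0.47, 0.434), and to Lrp1 (0.72 ± 0.26, 0.197) and Scarb1 (0.62 ± 0.23, 0.203), all by edgeR. In a6-high against a6-low cells the 12 other sterol and isoprenoid genes were 6 higher and 6 lower with a median of 0.02, where the members had -0.35, and the desaturases and elongases were 7 of 8 lower with a median of -0.38. Of 15 cell cycle genes, 4 (Cdk1, Ccne1, Plk1 and Aurkb) rose in CD34+ against a6-low cells (4.93% of all genes called), and 10 with the pairing (11.8%). The pairing also called 2 (Ccne1 and Plk1) higher against CD34- a6-high cells, where it called 5.41% of all genes. Between KO and WT libraries none of these 7 lists had a call in any population.

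Markers of other cells differed beside these results. Adipocyte markers summed to 22.44 to 708.3 CPM in CD34+, 8.5 to 84.16 CPM in CD34- a6-high and 8.65 to 280 CPM in a6-low libraries, nearly all from Fabp4, which endothelial cells also express, and Adipoq had no count in any library. Endothelial marker sums spanned 18.76 to 80.02 CPM in CD34+ and 5.21 to 13.96 CPM in CD34- a6-high cells. All 7 tested endothelial markers were fitted higher in CD34+ than in CD34- a6-high cells (median 3.04 on the log2 scale). The edgeR test called 0 of them, and 2 with the pairing (5.41% of all genes). In 5 of 5 pairs 6 of these markers were higher, against 10.1% of all genes. Their a6-low sums, from 5.198 to 28.07 CPM, overlapped those of CD34+ cells. Plvap, a gene on that list, made up 39.19 CPM of the highest CD34+ sum, that of WT replicate 3. Fabp4 stood at 699.7, 315.4 and 281.8 CPM in CD34+ KO replicate 1, WT replicate 2 and WT replicate 3. Endothelial markers there summed to 20.78, 18.76 and 80.02 CPM. In a6-low KO replicate 1 Fabp4 stood at 275.7 CPM, beside an endothelial sum of 5.198 CPM. Fibroblast markers summed to 0.902 to 9 CPM in CD34+, 9.13 to 264 CPM in CD34- a6-high and 217.3 to 287.6 CPM in a6-low libraries. Nearly all of the fibroblast sum was Postn, a secreted matrix protein, while Col1a1, Col1a2, Col3a1, Dcn, Lum, Pdgfra and Pdgfrb did not exceed 1.91 CPM in any library. All 6 tested fibroblast markers were fitted lower in CD34+ than in CD34- a6-high cells, with 2 called by edgeR. Of 7 tested macrophage and dendritic markers, 3 were fitted higher and 4 lower there, with 1 called, as higher. That test called 1.17% of all genes. Of the 8 tested sebocyte markers 6 were fitted lower in CD34+ than in a6-low cells (median -0.51 on the log2 scale). Pparg was the 1 called, as higher (1.58 ± 0.36 (SE), adjusted p = 0.0304 by edgeR). With the pairing Krt79 was also called, as lower (-3.10, adjusted p = 0.0427). Their part in the members' differences was not tested.

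Some counts carry uncertainty of assignment. Acat2, which makes acetoacetyl-CoA, has a near copy, Acat3, in the files. Fdft1, the squalene synthase, shares 774 exon bases with Ctsb on the opposite strand, Scap shares 985 with 5830462I19Rik, Lss 381 with 4930483K19Rik and Cyp51 166 with Akap9, while Tm7sf2 shares 532 with Vps51 on the same strand. Reads from such pairs cannot be told apart without strand or were not counted.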

How the data were processed

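Per the labels' protocols, RNA was made into libraries with SMART-Seq v4, a kit without strand information. The deposited files hold read counts per Ensembl gene as whole numbers, not normalized. The submitters' processing notes name Picard 1.100, HTSeq 0.6.0, STAR 2.3.0 and mm9 as the build, with no role for each. The gene annotation used for counting is not given in those notes. Entries that name no gene (reads aligned to several places 29.86% to 38.04%, outside genes 2.61% to 5.13%, in more than 1 gene 1.86% to 2.2% of the records) were left out. Symbols and exon lengths came from GENCODE M21 and start-site sequences from RefSeq on GRCm38.p6, which had windows for 23 of the 27 genes. That is another build than the counts.

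The test was edgeR's quasi-likelihood test (edgeR 4.0.16, R 4.3.3) on all 15 libraries with 1 coefficient per group, TMM scaling and filterByExpr, which kept 14652 genes, with Benjamini-Hochberg adjustment at 0.05. Standard errors were derived from the F statistic, and CPM are TMM-scaled. The test was repeated with DESeq2 1.42.0, with size factors from DESeq2, unfiltered, at 10 CPM or more in 2 libraries, on the compared groups alone, with a replicate block and without each library. Chosen after the data were seen were leaving out the 2 a6-low libraries with high Itga6 and the 3 with Ddx3y. The tests were tried on simulated data. The members and lists were chosen with earlier results of these data known. The value in every library is given for members past the threshold and, up to 10 in all, those with the smallest unadjusted p between populations. Other lists name the members that pass, or else the 2 with the smallest p, of which not all are printed.

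Same-numbered libraries of a genotype deviated together from their group means in both comparisons with CD34+ cells. The r was 0.104 to 0.53 over 5 pairs against CD34- a6-high cells and 0.273 to 0.589 against a6-low cells. The test was therefore repeated with same-numbered libraries as pairs. The main test, with its SE and adjusted p, does not take the pairing into account. The labels do not state this pairing. Between a6-high and a6-low CD34- cells r was -0.0124 to 0.466. With 2 KO libraries a group, both KO pairs mirror each other. No replicates agreed within sampling noise (chi-square over degrees of freedom 35.3 to 274).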

Additional observations from a re-analysis of the deposited data

How the results depend on the processing

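The number of called members, 0 in the CD34, a6, genotype and interaction comparisons and 1 (Sc5d) between CD34+ a6-high and a6-low cells, was the same with DESeq2, DESeq2 size factors, a filter of 10 CPM in 2 libraries and the compared groups alone. With no filter on low counts 1 member was called in the CD34 comparison (Dhcr7), and the share of all genes called there is not given here. With a replicate block the counts were 0 for CD34, 0 for a6 and 1 for CD34+ a6-high against a6-low cells, and the pairing changed no call of a member. Leaving out 1 library gave 0 to 1 called members in the last comparison, and 5 to 12 members fitted lower in the CD34 comparison, where 8 were. Without the 2 a6-low libraries with high Itga6, which keeps KO replicate 1 as the only KO a6-low library, all 26 members were fitted lower in the a6 comparison. Without the 3 libraries with Ddx3y, 0 were called between CD34+ a6-high and a6-low cells and 14 were fitted lower in the CD34 comparison.

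Among the 10 members given by library, the differences that changed sign were not called. Between CD34+ a6-high and a6-low cells, leaving out 1 library gave Fasn -0.016 to 0.318, Dhcr7 -0.013 to 0.778, Acly -0.086 to 0.562 and Hsd17b7 -0.119 to 0.352, and in the a6 comparison Acly -0.673 to 0.005. Without the 2 libraries with high Itga6 the values were -0.002 for Fasn, -0.072 for Acly and -0.034 for Hsd17b7. Without the 3 with Ddx3y they were -0.007 for Hsd17b7 and, in the CD34 comparison, -0.005 for Sqle and -0.028 for Cyp51. The cause was not tested. The least counted member, Tm7sf2, had the widest intervals.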
